A study of Homo sapiens with 3 samples.

Results

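The miR-200 family was followed as 9 mature strands from 5 hairpins, chosen by name: hsa-miR-200a-3p, hsa-miR-200b-3p, hsa-miR-200c-3p, hsa-miR-141-3p and hsa-miR-429, and the opposite strands hsa-miR-200a-5p, hsa-miR-200b-5p, hsa-miR-200c-5p and hsa-miR-141-5p. The prefix hsa, for human, is left out from here on. All 9 were found among the 1149 human miRNAs of the deposited table. Their levels were read in 3 small RNA libraries from clones of the established human cell line CAL-27, which derives from a tongue tumour of squamous type. CC clones were untreated. Mock clones, according to the series' design, descended from cells exposed once to 2 Gy of X-rays. RR, the radioresistant group, had received 2 Gy a day in 2 cycles, each of 5 days and each with 2 weeks of recovery after it, before clones were grown from single cells. Whether 1 clone or several went into a library is not stated. The treatment tags leave the identity of Mock and RR in doubt, since the tag that names a 2 Gy dose stands on RR and the tag that names irradiation alone stands on Mock. Each direction below therefore belongs to the library labelled so. With 1 library per group there is no replicate check and no p-value.

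The miR-200 family is a classical marker of the epithelial state. Its members repress ZEB1 and ZEB2, transcription factors that silence E-cadherin and drive the epithelial-to-mesenchymal transition, and ZEB1 and ZEB2 in turn repress the transcripts from which the family is cut. A hairpin is cut by Drosha and Dicer into a 5p and a 3p strand, and the strand loaded into Argonaute, here by convention the 3p strand, is called the guide. The seed, bases 2 to 8 of the strand, does most of the pairing with target mRNAs.

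The mature sequences are shown because the family divides by its seed, given in capitals, in the DNA letters of the deposited table. The first seed group held 3 guides.
miR-200b-3p: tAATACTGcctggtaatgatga
miR-200c-3p: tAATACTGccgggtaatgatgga
miR-429: tAATACTGtctggtaaaaccgt
The second group held 2 guides, whose seed differs from the first at 1 base, position 4 counted from the 5′ end (C4T from miR-200a-3p to miR-200b-3p).
miR-200a-3p: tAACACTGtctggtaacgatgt
miR-141-3p: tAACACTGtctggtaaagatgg
The 5p strands had seeds of their own, shared only by those of miR-200a and miR-200b.
miR-200b-5p: cATCTTACtgggcagcattgga
miR-200a-5p: cATCTTACcggacagtgctgga
miR-200c-5p: cGTCTTACccagcagtgtttgg
miR-141-5p: cATCTTCCagtacagtgttgga

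All 9 sequences matched RefSeq on GRCh38.p14, 8 as mature entries and miR-141-5p within the hairpin of MIR141. The guides miR-200b-3p and miR-200c-3p differ at 2 of their first 22 bases (T11G and A22G), and miR-200a-3p and miR-141-3p at 2 (C17A and T22G). The handling of reads that fit both members of such a pair is not stated in these sources, so the level of each carries that uncertainty. No listed miRNA outside the family lay within 2 mismatches of a member. Among the other listed miRNAs, miR-550a-3p alone shared a seed with a member, that of miR-200c-5p, and its level, in reads per 1000000 reads of the library total (rpm), was 3.06 in CC against 1.22 in Mock and 2.77 in RR.

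The 5 hairpins lie in 2 clusters, both on the plus strand. On chromosome 1, MIR200B (1167104 to 1167198), MIR200A (1167863 to 1167952) and MIR429 (1169005 to 1169087) lie within 1984 bases, inside the long non-coding gene MIR200BHG of RefSeq. On chromosome 12, MIR200C (6963699 to 6963766) and MIR141 (6964097 to 6964191) lie within 493 bases, in an intron of the long non-coding gene MIR200CHG in GENCODE release 29. The hairpins that gave the most abundant guide of each cluster are shown with their listed strands in capitals, 5p first and 3p second, since strand use differed widely between them.
MIR200B: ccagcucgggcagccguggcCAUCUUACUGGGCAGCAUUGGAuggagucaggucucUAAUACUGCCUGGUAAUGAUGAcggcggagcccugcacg
MIR200C: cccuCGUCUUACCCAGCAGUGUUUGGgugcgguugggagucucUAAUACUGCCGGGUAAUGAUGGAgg

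Because strands of a cluster come from a shared transcript, the starts of both host genes are shown, from 250 bases before to 50 after the RefSeq start, with the E-box CACCTG in capitals. CACCTG, searched with its reverse complement CAGGTG and overlapping no other motif searched, is the core of the site that ZEB1 and ZEB2 bind. MIR200BHG (chr1:1162627-1162926) held it at 2 places, 102 and 58 bases before the start.
MIR200BHG: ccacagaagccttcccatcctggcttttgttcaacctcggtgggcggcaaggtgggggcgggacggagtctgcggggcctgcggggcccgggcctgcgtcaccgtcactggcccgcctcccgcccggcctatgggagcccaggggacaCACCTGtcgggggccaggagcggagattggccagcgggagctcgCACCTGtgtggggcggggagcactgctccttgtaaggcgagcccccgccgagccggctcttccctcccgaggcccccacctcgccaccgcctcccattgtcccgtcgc
MIR200CHG (chr12:6962995-6963294) held it at 1 place, 78 bases before the start.
MIR200CHG: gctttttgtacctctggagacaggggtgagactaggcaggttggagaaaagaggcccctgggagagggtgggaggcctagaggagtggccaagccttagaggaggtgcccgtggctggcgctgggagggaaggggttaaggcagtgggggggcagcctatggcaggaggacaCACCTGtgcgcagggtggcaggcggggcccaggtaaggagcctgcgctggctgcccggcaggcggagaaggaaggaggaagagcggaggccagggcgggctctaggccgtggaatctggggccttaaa
Of 35116 RefSeq promoters of 300 bases, 20.6% held the motif at least once and 3.49% at 2 or more places. The first hairpin begins 4227 bases after the start in MIR200BHG and 454 bases after it in MIR200CHG.

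The libraries held 10473400 to 10769990 reads in all, of which 16.3% in CC, with 23.2% in Mock and 20.5% in RR were reads of the listed miRNAs. Intervals here are exact 95% intervals that cover counting error only, as reads copied by PCR are not independent molecules. A floor of 3 reads corresponds to 0.279 rpm in CC against 0.282 in Mock and 0.286 in RR, and all 9 members lay above it in every library. Of the defining miRNAs of squamous epithelium, a list that holds miR-200c-3p itself, all 4 were measured, with a summed level of 37885 rpm in CC, with 28335 in Mock and 44114 in RR. Of these 4, miR-205-5p alone was lower in Mock than in CC, at 25945, 14174 and 29651 rpm in CC, Mock and RR. In the same order miR-200c-3p stood at 11739, 13918 and 14183 rpm, miR-31-5p at 179, 219 and 240 and miR-203a-3p at 22.8, 23.7 and 39.2. The 3 fibroblast miRNAs of 5 that were found in the table summed to 6.41, 5.64 and 6.49 rpm, of which miR-143-3p gave 5.76, 4.42 and 6.30 rpm.

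The family made up a large part of the miRNA pool in all 3 libraries. Its 9 strands together took 8.11% of the miRNA reads in CC (8.07% to 8.15%), 6.90% in Mock (6.87% to 6.93%) and 7.77% in RR (7.73% to 7.80%). On the deposited scale the order was not the same, with 13178 rpm for CC, 15981 rpm for Mock and 15932 rpm for RR. CC was thus lowest by rpm and highest by share of the miRNA reads, where Mock was lowest. Differences of this size between libraries rest on the scale chosen. In bulk RNA, fewer cells that make a miRNA and less of it per cell cannot be told apart.

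miR-200c-3p, the leading guide of the chromosome 12 cluster, accounted for nearly all of this. It stood at 11739 rpm in CC (11674 to 11804), 13918 in Mock (13847 to 13989) and 14183 in RR (14111 to 14256), and ranked 3rd, 5th and 3rd among all listed miRNAs. Of the reads of the 5 guides it gave 91.1% in CC against 89.3% in Mock and 91.1% in RR. miR-200b-3p, which carries the same seed and leads the chromosome 1 cluster, followed at 976 rpm in CC, with 1420 in Mock and 1160 in RR, with ranks of 28, 26 and 31. miR-200c-3p was 12.0-fold above miR-200b-3p in CC (11.8 to 12.3), 9.80-fold in Mock (9.64 to 9.97) and 12.2-fold in RR (12.0 to 12.5).

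The remaining guides were far lower. miR-200a-3p stood at 102 rpm in CC against 144 in Mock and 133 in RR. miR-429, the last hairpin of the chromosome 1 cluster, was at 51.3, 75.9 and 70.4 rpm. miR-141-3p, cut from the transcript that also gives miR-200c-3p, stood at 16.6 rpm in CC, with 34.4 in Mock and 23.9 in RR, resting on 179, 366 and 250 reads. It made up 0.141% of the guide reads of its cluster in CC against 0.247% in Mock and 0.168% in RR. Guides from 1 cluster thus lay much further apart on chromosome 12 than on chromosome 1, where miR-200b-3p, miR-200a-3p and miR-429 gave 86.4%, 9.04% and 4.54% of the guide reads in CC.

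The 5p strands showed another order. miR-200b-5p stood at 184 rpm in CC against 236 in Mock and 223 in RR, above the guide miR-200a-3p in each library. miR-200a-5p stood at 97.6, 136 and 119 rpm. miR-141-5p, at 9.47, 13.6 and 12.1 rpm, and miR-200c-5p, at 2.41, 3.48 and 6.11 rpm, were the lowest of the 9. The order of all 9 strands was the same in every library: miR-200c-3p, miR-200b-3p, miR-200b-5p, miR-200a-3p, miR-200a-5p, miR-429, miR-141-3p, miR-141-5p and miR-200c-5p. Neighbours in it differed beyond counting error, except miR-200a-3p and miR-200a-5p, with ratios of 1.05 in CC (0.961 to 1.14) and 1.06 in Mock (0.989 to 1.14), against 1.13 in RR (1.04 to 1.22).

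**Figure D1:**
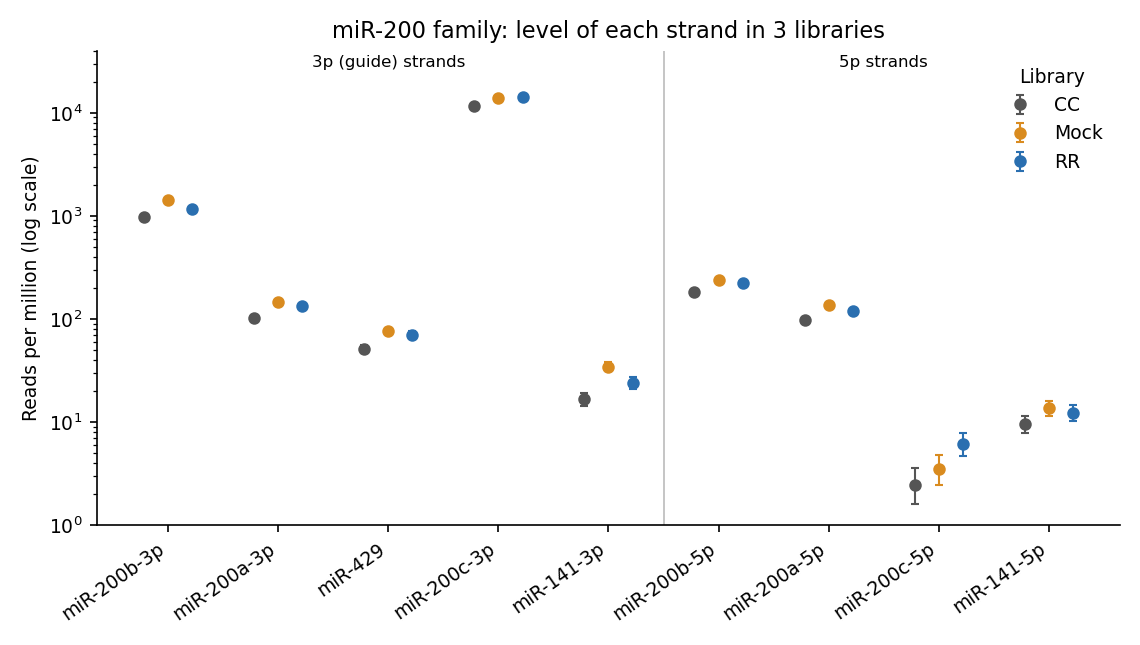
Level of the 9 strands in rpm (log axis) in the libraries CC, Mock and RR, with exact 95% Poisson intervals, 3p strands on the left and 5p strands on the right. miR-200c-3p stands at 11739 rpm or more in each library and miR-200c-5p, from the same hairpin, at 6.11 rpm or less.

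By seed, nearly all guide reads belonged to the group of miR-200b-3p, miR-200c-3p and miR-429. That seed group summed to 12767 rpm in CC, with 15414 in Mock and 15414 in RR. The seed group of miR-200a and miR-141 summed to 119 rpm in CC against 179 in Mock and 157 in RR, and gave 0.922% of the guide reads in CC (0.872% to 0.973%), 1.15% in Mock (1.10% to 1.20%) and 1.01% in RR (0.963% to 1.06%). Within this minor group miR-200a-3p, from chromosome 1, was the main source, and miR-141-3p gave 14.0% of its reads in CC against 19.3% in Mock and 15.2% in RR.

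RR over CC asks whether the family differs between radioresistant and untreated cells. No member with a mean level of 10 rpm differed by 2-fold, and the scarcer miR-200c-5p is described with the strand ratios. Of the 9 members 8 were measured, meaning that their mean level reached 10 rpm. A call at 2-fold needed a log2 ratio, taken after 1 rpm was added, at or beyond 1 in either direction. Of these 8, 0 were called, where 1.44% of all 208 measured miRNAs were. The 8 log2 ratios ran from 0.25 in miR-200b-3p to 0.50 in miR-141-3p, with a median of 0.30 beside 0.36 for all 208. Each of the 8 fell between the quartiles of all measured miRNAs, 0.19 and 0.50. miR-200c-3p was 1.21-fold higher in RR (1.20 to 1.22), miR-200b-3p 1.19-fold (1.16 to 1.22), miR-200a-3p 1.31-fold (1.21 to 1.42) and miR-429 1.37-fold (1.23 to 1.54). The interval of miR-141-5p, 0.979 to 1.68, included no change. As a share of the miRNA reads 4 of the 8 measured members lay above CC, with a median of -0.02 beside 0.03 for all 208, so that the direction against CC rests on the scale.

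Ratios within the family do not depend on the scale, and the shares of the guides were close in RR and CC, in contrast to the strand ratio of miR-200c described further on. The chromosome 12 cluster gave 91.2% of the guide reads in CC (91.1% to 91.4%) and 91.2% in RR (91.1% to 91.4%), an odds ratio of 1.00 (0.976 to 1.03). Within the chromosome 1 cluster miR-200b-3p gave 86.4% of the guide reads in CC and 85.1% in RR, miR-200a-3p 9.04% and 9.78%, and miR-429 4.54% and 5.16%. The odds ratio for miR-200b-3p was 0.894 (0.834 to 0.959), a shift larger than counting error and small in size. No replicate shows how much such shares vary between cultures.

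Mock over CC sets the library labelled as singly exposed against the untreated one. All 8 measured members stood above CC on the deposited scale, with log2 ratios from 0.25 in miR-200c-3p to 1.01 in miR-141-3p and a median of 0.49, beside 0.28 for all 208. As a share of the miRNA reads 4 of the 8 lay above CC, with a median of 0.00073 beside -0.22 for all 208, and the log2 ratio of miR-200c-3p turned to -0.27. miR-141-3p alone passed 2-fold, at 2.07-fold (1.73 to 2.49), which makes 1 of 8 called where 15.9% of all measured miRNAs were. This lay at the edge of the threshold: its log2 ratio of 1.01 became 0.72 with median-ratio scaling, 0.54 as a share of miRNA reads and 0.75 without the trend with GC content. miR-200b-3p was 1.45-fold higher (1.42 to 1.49), miR-200a-3p 1.41-fold (1.31 to 1.53), miR-429 1.48-fold (1.33 to 1.65) and miR-200c-3p 1.19-fold (1.18 to 1.20).

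The summed guides of the 2 clusters thus differed in their ratio, but miR-141-3p did not follow its cluster. The chromosome 1 guides summed to 1130 rpm in CC and 1640 rpm in the library labelled Mock, 1.45-fold higher (1.42 to 1.49), and the chromosome 12 guides to 11756 and 13952 rpm, 1.19-fold higher (1.18 to 1.20). Relative to chromosome 12, the chromosome 1 guides were 1.22-fold higher in Mock than in CC (1.19 to 1.25). Most reads of these sums came from miR-200b-3p and miR-200c-3p, whose ratio alone changed 1.23-fold (1.19 to 1.26). miR-141-3p, the other guide of chromosome 12, was 2.07-fold higher in Mock, more than any chromosome 1 guide. Ratios to Mock also moved with base composition. Across the 208 measured miRNAs, which share library and depth, the log2 ratio and the GC content had a Spearman correlation of -0.55. GC content was 36.4% in miR-200b-3p and miR-429, 40.9% in miR-200a-3p and miR-141-3p and 43.5% in miR-200c-3p. When each library's linear trend with GC content was removed, the 1.22 became 1.07. In RR over CC, where that correlation was 0.05, the same quantity was 0.999 (0.974 to 1.02) and 1.01 without the trend.

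**Figure D2:**
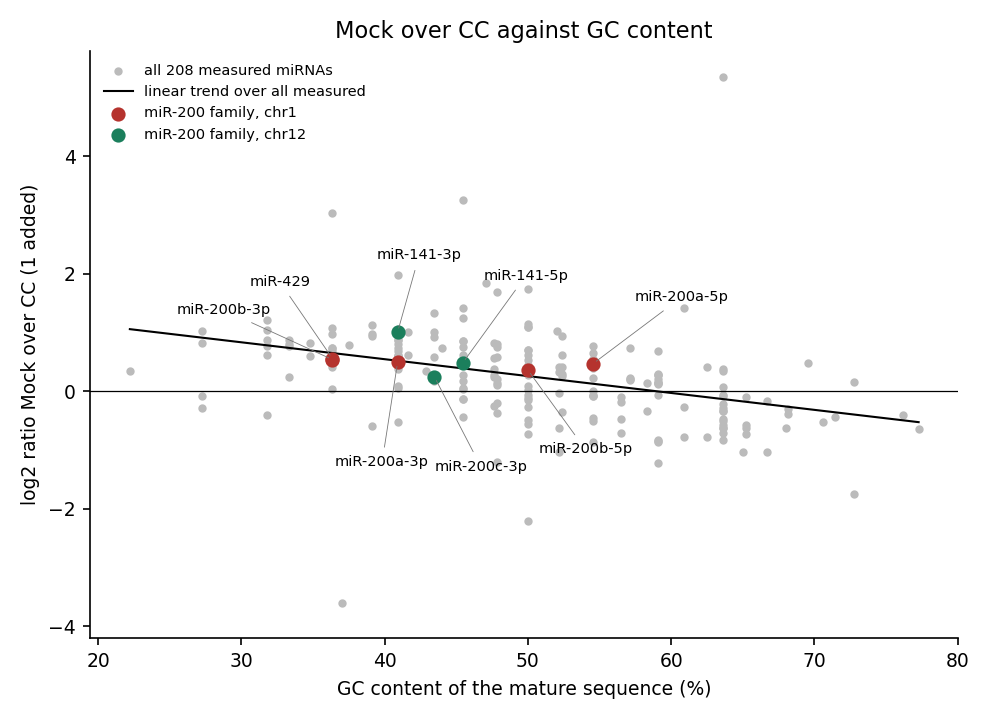
GC content of the mature sequence (%) against the log2 ratio Mock over CC after adding 1 rpm, for 208 measured miRNAs (grey) and the 8 measured members (red for chromosome 1, green for chromosome 12), with the linear trend over all. The line falls with GC content, and the members lie between 0.25 and 1.01, with miR-141-3p above the line and miR-200c-3p below it.

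miR-141-3p and miR-200a-3p carry the same seed and have the same GC content, 40.9%. Removing the linear GC trend thus leaves their ratio unchanged by construction. They differ at 2 of 22 bases, and the handling of reads that fit both is not stated. Neither this handling nor the difference in bases was tested as a source of bias. miR-141-3p over miR-200a-3p was 1.47-fold higher in Mock than in CC (1.20 to 1.79). In RR against CC the same ratio was 1.10 (0.889 to 1.36), which includes no change. Against miR-200c-3p, its neighbour on chromosome 12, miR-141-3p was 1.75-fold higher in Mock than in CC (1.46 to 2.10), and 1.66-fold without the GC trend. These intervals compare 2 libraries, and between 179 and 366 reads of miR-141-3p stand behind them.

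Among miRNAs of other cell types, the library labelled Mock was highest in those of blood, but not in the sums for muscle or endothelium. The 5 blood miRNAs of 6 that were found in the table summed to 9.56 rpm in CC, with 409 in Mock and 12.2 in RR. miR-486-5p gave 398 rpm of the sum in Mock, and miR-144-3p and miR-142-5p had 0 reads in CC and RR against 26 and 5 in Mock. Of the muscle miRNAs, miR-206 stood at 1.76, 25.5 and 3.63 rpm and was highest in Mock. The other members of that list were lowest in Mock, miR-1-3p at 338, 319 and 404 rpm and miR-133a-3p with 11, 7 and 9 reads. The 3 muscle miRNAs summed to 341, 345 and 408 rpm. The 2 endothelial miRNAs, both strands of miR-126, summed to 55.2, 66.9 and 81.9 rpm. Their part in the levels of the miR-200 family was not tested.

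RR over Mock compares the library of repeated exposure with that of a single one. None of the 8 measured members passed 2-fold, where 13.0% of all 208 did, and this comparison shares its libraries with the others. Log2 ratios ran from -0.51 in miR-141-3p to 0.03 in miR-200c-3p, with a median of -0.13 beside 0.06 for all 208. miR-141-3p was 1.44-fold lower in RR (1.22 to 1.70) and miR-200b-3p 1.22-fold lower (1.19 to 1.25), while miR-200c-3p had a ratio of 1.02 (1.01 to 1.03). With the GC trend removed the direction turned for 3 members: the log2 ratio of miR-200b-3p went from -0.29 to 0.13, that of miR-200a-3p from -0.11 to 0.17 and that of miR-429 from -0.11 to 0.31. The log2 ratio of miR-200c-3p turned to -0.054 with median-ratio scaling. The 5 guides together had a ratio of 0.999 (0.992 to 1.01). All 8 members lay below the median of all measured miRNAs, and 4 of 8 did once the GC trend was removed.

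**Figure D3:**
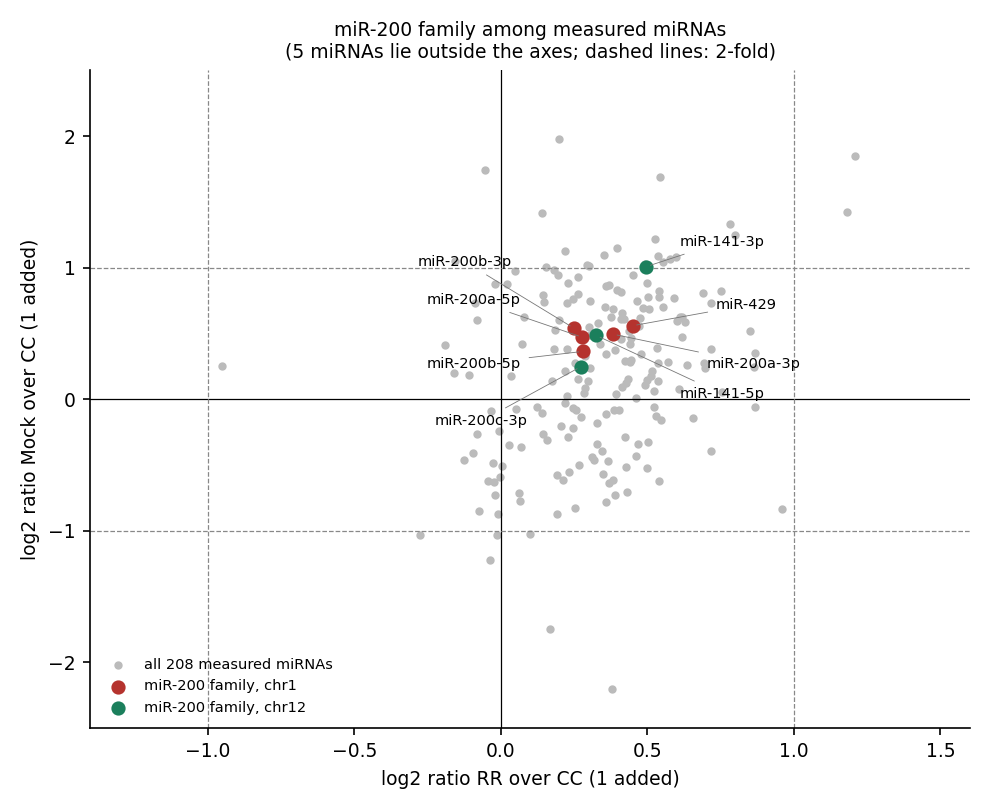
Log2 ratio RR over CC against log2 ratio Mock over CC, after adding 1 rpm, for 208 measured miRNAs (grey, 5 of them outside the axes) and the 8 measured members (red for chromosome 1, green for chromosome 12), with dashed lines at 2-fold. The members lie together between 0.25 and 0.50 on the horizontal axis, and miR-141-3p reaches the 2-fold line on the vertical axis.

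Strand use differed more between the hairpins than between the libraries. miR-200a gave its 2 strands in nearly equal number, with a 5p over 3p ratio of 0.955 in CC (0.877 to 1.04), 0.940 in Mock (0.874 to 1.01) and 0.888 in RR (0.822 to 0.960). Without the GC trend these became 1.13, 1.46 and 1.03, so that the direction turned in each library. Among 101 hairpins that gave both strands in every library, with a summed mean of 10 rpm or more, miR-200a was the most even by the deposited values, and only 7 of them (6.93%) had strands within 2-fold of each other. miR-141 lay close to that range, with ratios of 0.570 in CC (0.442 to 0.731), 0.396 in Mock (0.325 to 0.481) and 0.508 in RR (0.407 to 0.631). miR-200b gave 5.32 reads of its 3p strand per 5p read in CC against 6.01 in Mock and 5.20 in RR.

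miR-200c used its 3p strand almost alone. It gave 4863 reads of its 3p strand for each 5p read in CC (3319 to 7444), 4000 in Mock (2902 to 5681) and 2321 in RR (1818 to 3014). miR-200c-5p, not among the measured members because of its low mean, had 26 reads in CC against 37 in Mock and 64 in RR. It was 2.53-fold higher in RR than in CC (1.58 to 4.16) and 1.76-fold higher than in Mock (1.15 to 2.71). The 5p over 3p ratio of miR-200c changed 2.09-fold between CC and RR (1.31 to 3.44), which is 10th in size among the 101 hairpins, of which 9.90% changed by 2-fold or more. Without the GC trend this change was 2.06-fold. Between Mock and RR the ratio changed 1.72-fold (1.13 to 2.66), and 1.36-fold without the GC trend. For miR-200a, miR-200b and miR-141 the change between CC and RR was 0.930 (0.828 to 1.04), 1.02 (0.958 to 1.09) and 0.891 (0.637 to 1.25), each including no change. Between CC and Mock the ratio of miR-200b changed by 0.885 (0.830 to 0.944) and became 1.16 without the GC trend, so that its direction turned. That of miR-141 changed by 0.695 (0.504 to 0.961), and by 0.761 without the trend.

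**Figure D4:**
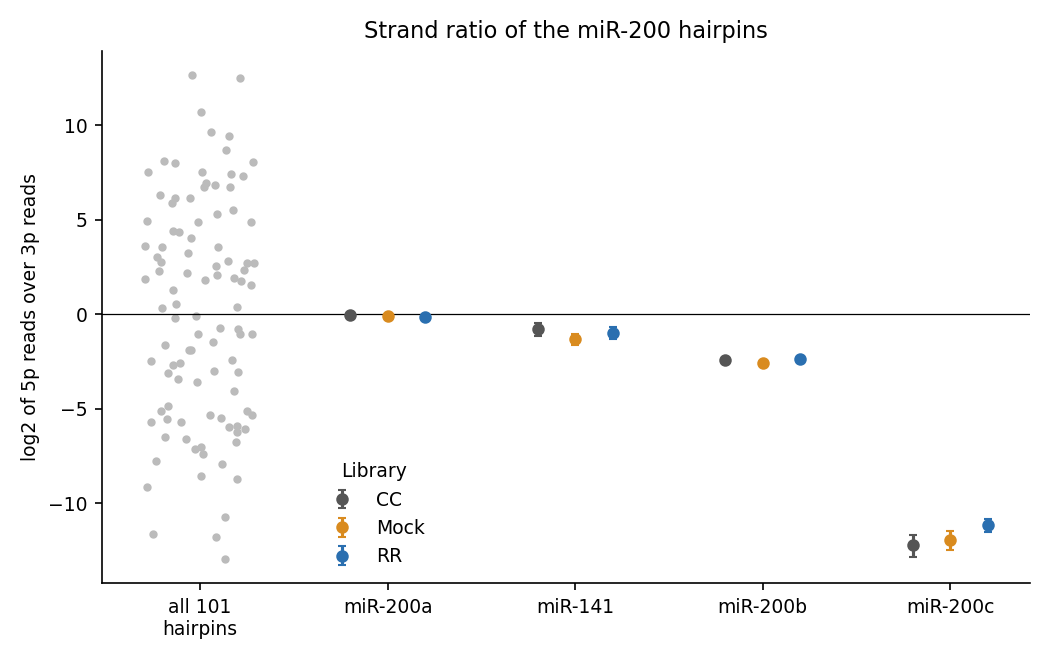
Log2 of 5p reads over 3p reads for 4 hairpins of the family in CC, Mock and RR with exact 95% intervals, beside the mean over the 3 libraries for each of 101 hairpins (grey). On average miR-200a lies at -0.11 and miR-200c at -11.8, with the library RR above CC and Mock in miR-200c.

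Of the miRNAs outside the family with a mean of 100 rpm or more, 88 were compared for the likeness of their pattern, measured as the distance in the log2 ratios Mock over CC and RR over CC, which is over 3 libraries only. Nearest to miR-200c-3p were miR-128-3p at a distance of 0.04, miR-191-5p at 0.08, miR-23a-3p at 0.14 and miR-23b-3p at 0.15. Nearest to miR-200b-3p were miR-532-5p at 0.05, miR-25-3p at 0.07, miR-26a-5p at 0.07 and miR-17-5p at 0.09. Members lay at all distances in this measure. From miR-200c-3p, miR-200b-5p lay at 0.12, with 2 of the 88 nearer, miR-200b-3p at 0.29, with 20 nearer, and miR-141-3p at 0.79, with 66 nearer. From miR-200b-3p, miR-200a-5p lay at 0.08, with 3 nearer, miR-141-5p at 0.10 and miR-200a-3p at 0.14, each with 4 nearer. Further from miR-200b-3p lay miR-200b-5p at 0.18, with 9 nearer, miR-429 at 0.20, with 15 nearer, and miR-200c-3p at 0.29, with 25 nearer. Furthest were miR-141-3p at 0.53, with 49 nearer, and the scarce miR-200c-5p at 0.82, with 68 nearer.

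Of 11 further miRNAs of the epithelial state found in the table, 9 were measured. None of the 9 was past 2-fold in RR over CC or Mock over CC, where 1.44% and 15.9% of all 208 were. Their median log2 ratios were 0.38 and 0.68, beside the 0.36 and 0.28 of all measured miRNAs. In RR over Mock 1 of the 9, miR-205-5p, was past 2-fold, at 2.09-fold (2.08 to 2.10), where 13.0% of all 208 were. miR-205-5p, which also represses ZEB1 and ZEB2, stood at 25945 rpm in CC, with 14174 in Mock and 29651 in RR, so that it was lower in Mock where the 5 guides of the family were higher on the deposited scale. There were 0.497 guide reads of the family per read of miR-205-5p in CC (0.493 to 0.500), 1.10 in Mock (1.09 to 1.11) and 0.525 in RR (0.522 to 0.528). GC content was 54.5% in miR-205-5p and 36.4% to 43.5% in the guides. The part of the GC trend in this ratio was not tested. The sensory and epithelial miRNAs miR-182-5p and miR-183-5p stood at 489, 754 and 517 rpm and at 174, 280 and 227 rpm. miR-30a-5p stood at 89.5, 163 and 115 rpm.

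Of 10 miRNAs linked to the mesenchymal state that were found in the table, 6 were measured, and none was past 2-fold in any of the 3 comparisons. Of all 208 measured miRNAs, 1.44% were in RR over CC, 15.9% in Mock over CC and 13.0% in RR over Mock, so 0 of 6 says little about this list. Their median log2 ratios were 0.41 for RR over CC and 0.68 for Mock over CC, close to those of the epithelial list. The highest were miR-100-5p, at 6483 rpm in CC against 9892 in Mock and 8626 in RR, and miR-125b-5p, at 898, 958 and 1198 rpm. miR-155-5p, at 487, 842 and 537 rpm, and miR-22-3p, at 185, 312 and 256 rpm, were highest in Mock. miR-199a-5p and miR-145-5p, made mostly by fibroblasts and smooth muscle, had 2 and 5 reads in CC, 12 and 1 in Mock and 0 and 2 in RR. On the same list, miR-143-3p had more, with 62, 47 and 66 reads in CC, Mock and RR, and miR-199b-5p had 2, 8 and 3.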

How the data were processed

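Small RNA libraries were made by adapter ligation from total RNA of CAL-27 clones and sequenced on an Illumina instrument, per the labels' protocols. Per the submitters' processing notes, Bowtie and the build GRCh38 were used, with no version or role given. Trimming, the miRNA reference and the rule for reads that fit several miRNAs: not given in the sources used here. The deposited values, which the authors call TPM, behave as RPM: each is a whole multiple, within 0.01, of a step shared by all miRNAs of a library, which gives whole reads for 100% of values, and totals follow from the step.

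No count model was fitted, as each group has 1 library. Levels carry exact 95% Poisson intervals, shares Clopper-Pearson intervals, ratios limits from the share of reads, and ratios of ratios exact conditional limits. Measured means a mean of 10 rpm or more, and past the fold means a log2 ratio at or beyond 1 in either direction after adding 1 rpm. Members, lists and the rule for likeness (4 nearest miRNAs to the leading guide of each cluster) were chosen with earlier results of these data known, and up to 4 measured miRNAs per list were named, by mean; members of the lists below this that are named were chosen after their values were seen. Alternatives were other scalings, pseudocounts, filters and folds, and a linear GC trend removed, anchored at 50% GC content. Computations, checked on simulated data, ran in scipy 1.17.1, numpy 2.4.6 and pandas 2.3.3 under Python 3.11.15, and matplotlib 3.10.9 drew the plots.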

Additional observations from a re-analysis of the deposited data

How the results depend on the processing

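No paired analysis was possible because each group has 1 library, and no library could be left out. The count of members past 2-fold was 0 in RR over CC. It became 1, miR-200c-5p with 26 to 64 reads, with a filter at a mean of 1 rpm and with no filter. Under these filters 5 of 390 and 6 of 1149 miRNAs were higher, and 2 were lower under each. In Mock over CC the count of members was 1, miR-141-3p, and 0 as a share of miRNA reads, with median-ratio scaling, with a common total that leaves out the 10 highest miRNAs, with the GC trend removed, with a pseudocount of 10, with a filter at 100 rpm and at 4-fold. In RR over Mock it was 0 under all 11 alternatives.

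The median log2 ratio of the 8 measured members in RR over CC, 0.30, became -0.016 as a share of miRNA reads, -0.064 with median-ratio scaling and -0.00051 with the common total, beside 0.03, -0.02 and 0.04 for all 208 miRNAs. In Mock over CC, 0.49 became 0.00073, 0.20 and 0.15 under the same 3 scalings and 0.30 with the GC trend removed, beside -0.22, -0.01, -0.06 and 0.32 for all. In RR over Mock, -0.13 became 0.035 as a share of miRNA reads and 0.055 with the GC trend removed. Scaling moves all miRNAs alike by construction, apart from the 1 rpm added before the logarithm, which weighs more on scarce miRNAs. As a share of miRNA reads in RR over CC, miR-200c-3p went from 0.27 to -0.062 and the scarce miR-200c-5p from 1.06 to 0.96. Over the single members 27 of 162 values changed sign, none of them past 2-fold as reported. With the GC trend removed the chromosome 12 share of the guide reads was 91.9% in CC, with 91.3% in Mock and 91.8% in RR, and the miR-200a and miR-141 seed group gave 1.08% in Mock. Of 12 strand ratios 7 moved beyond their counting interval, that of miR-200a to 1.13, 1.46 and 1.03 for CC, Mock and RR. Depth limits miR-200c-5p most, whose level in CC has an interval from 1.58 to 3.54 rpm.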
